A study of Mus musculus with 6 samples.

Results

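The semaphorin, plexin, ephrin, Eph, Slit, Robo, netrin and Unc5 genes, which encode the guidance ligands and receptors of axons and blood vessels, were followed in brain-derived endothelial cells of the mouse, which form the inner lining of vessels. They were chosen by symbol, as every semaphorin of classes 3 to 7, plexin, Eph receptor, ephrin, Robo, Slit, Unc5 receptor and numbered netrin in the deposited count table, which gave 67 of its 24421 genes. The 6 libraries of polyadenylated RNA fell into 2 groups of 3, labelled Fli-1 knockout (KO) and wild-type (WT). Fli-1 is a transcription factor of the ETS family. All 6 samples carry the same treatment line, in which deletion of Fli-1 alleles was induced with 4-OHT (4-hydroxytamoxifen, the agent that switches on tamoxifen-inducible recombinases). The cells had spent 6 days with a vascular niche in co-culture and were isolated by fluorescence-activated sorting. The labels give no Cre driver, strain, age or sex, and do not say whether the libraries came from separate cultures or animals, so p-values measure only the spread between these libraries.

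Guidance genes work as ligand and receptor families. Semaphorins signal through plexins, the class 3 members with the help of neuropilins, and mostly repel or collapse the cell edge that meets them. Ephrins are held on the membrane of one cell and bind Eph receptor kinases on its neighbour, and both sides can signal. Secreted Slits bind Robo receptors, and netrins bind Dcc, neogenin and Unc5 receptors. In vessels the best known pairs are Efnb2 of arteries with Ephb4 of veins, Sema3e with Plxnd1, and the endothelial receptors Robo4 and Unc5b.

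Library totals were 17550185 to 21385951 counts in the libraries labelled KO and 19599670 to 20898686 counts in the libraries labelled WT. Guidance genes took 0.606% to 0.659% of the counts in the libraries labelled KO and 0.638% to 0.660% in those labelled WT. Fli1 itself was not lower but higher in the libraries labelled KO. It stood at 76.8, 111 and 77.4 CPM (counts scaled to a library of fixed size) in them and at 45.3, 59.6 and 45.8 CPM in those labelled WT. The counts are per gene and do not show which exons the reads came from, so reads outside a deleted part were not tested. Groups are therefore named by their labels throughout, and each direction below would turn round if the labels were exchanged. Libraries with the same replicate number deviated together from their group means. Counts of guidance and partner genes that passed are therefore given without and with the number as a block. The second form is called the paired test here. Endothelial marker sums were 13112 to 14718 CPM in the libraries labelled KO and 12769 to 13728 CPM in those labelled WT. Of the 10 endothelial markers 2 were higher in the paired test, against 4.81% of all genes. Proliferation (G2/M) markers were higher for 10 of 10 genes in the paired test, with sums of 247 to 417 CPM in the libraries labelled KO and 140.3 to 224 CPM in those labelled WT. Of 10 immediate early genes 6 were lower in the paired test, against 4.01% of all genes. Their sums were 535 to 573 CPM and 652 to 703 CPM in the same order. Without the block none of these endothelial, G2/M or immediate early markers passed. Blood cell markers summed to 3.19 to 4.17 CPM over all 6 libraries, and Tyrobp, Spi1, Cd3e and Rac2 had no reads.

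Of the 67 guidance genes, 44 (65.7%) had a mean of 1 CPM or more over the 6 libraries. They comprised 12 of 20 semaphorins, 8 of 10 plexin entries, 4 of 9 EphA and 4 of 5 EphB receptors, 4 of 5 A-type and 2 of 3 B-type ephrins, 3 of 4 Robo genes, 2 of 3 Slits, 2 of 4 Unc5 receptors and 3 of 4 netrins. Just inside this limit lay Ephb2 at 1.02 CPM, and just outside it Sema6c at 0.860 CPM. Among semaphorins, 5 of 7 class 3 genes (secreted), 3 of 6 class 4, 3 of 4 class 6 (both transmembrane) and the membrane-anchored Sema7a reached the limit, against 0 of 2 class 5 genes. A total of 6 genes had 3 or fewer reads in all libraries together. Epha6 had 0 reads, and 3 reads, the limit that a count of 0 allows, would be 0.140 to 0.171 CPM in a library. The 49 genes that passed the low-count filter were tested, and the other 18 were not.

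Levels between genes were compared as CPM per kilobase of exon. A single gene made up most of the per-kilobase level in 9 of the 10 families. Robo4 made up 99.8% of the Robo level, Unc5b 96.7% of the Unc5 level, Ephb4 93.5% of the EphB level and Ntn4 89.1% of the netrin level. Epha2 held 86.8% of the EphA, Efnb2 85.8% of the ephrin-B, Efna1 83.7% of the ephrin-A, Plxnd1 68.9% of the plexin and Slit3 56.5% of the Slit level. The semaphorin level was the most divided, with Sema7a, the highest, at 30.8%. Per kilobase, Plxnd1 and Robo4 stood first, both at 235 CPM. Among the other family leaders, Epha2 stood at 61.6, Sema7a at 58.2, Efna1 at 53.0, Ephb4 at 38.4, Ntn4 at 36.3, Unc5b at 31.5 and Efnb2 at 29.0 CPM per kilobase. Slit3 stood at 0.744 CPM per kilobase over 6067 bases of exon and Slit2 at 0.558 over 25433 bases. This order rests on the summed exon length, since Slit2 was the higher in CPM.

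**Figure D1:**
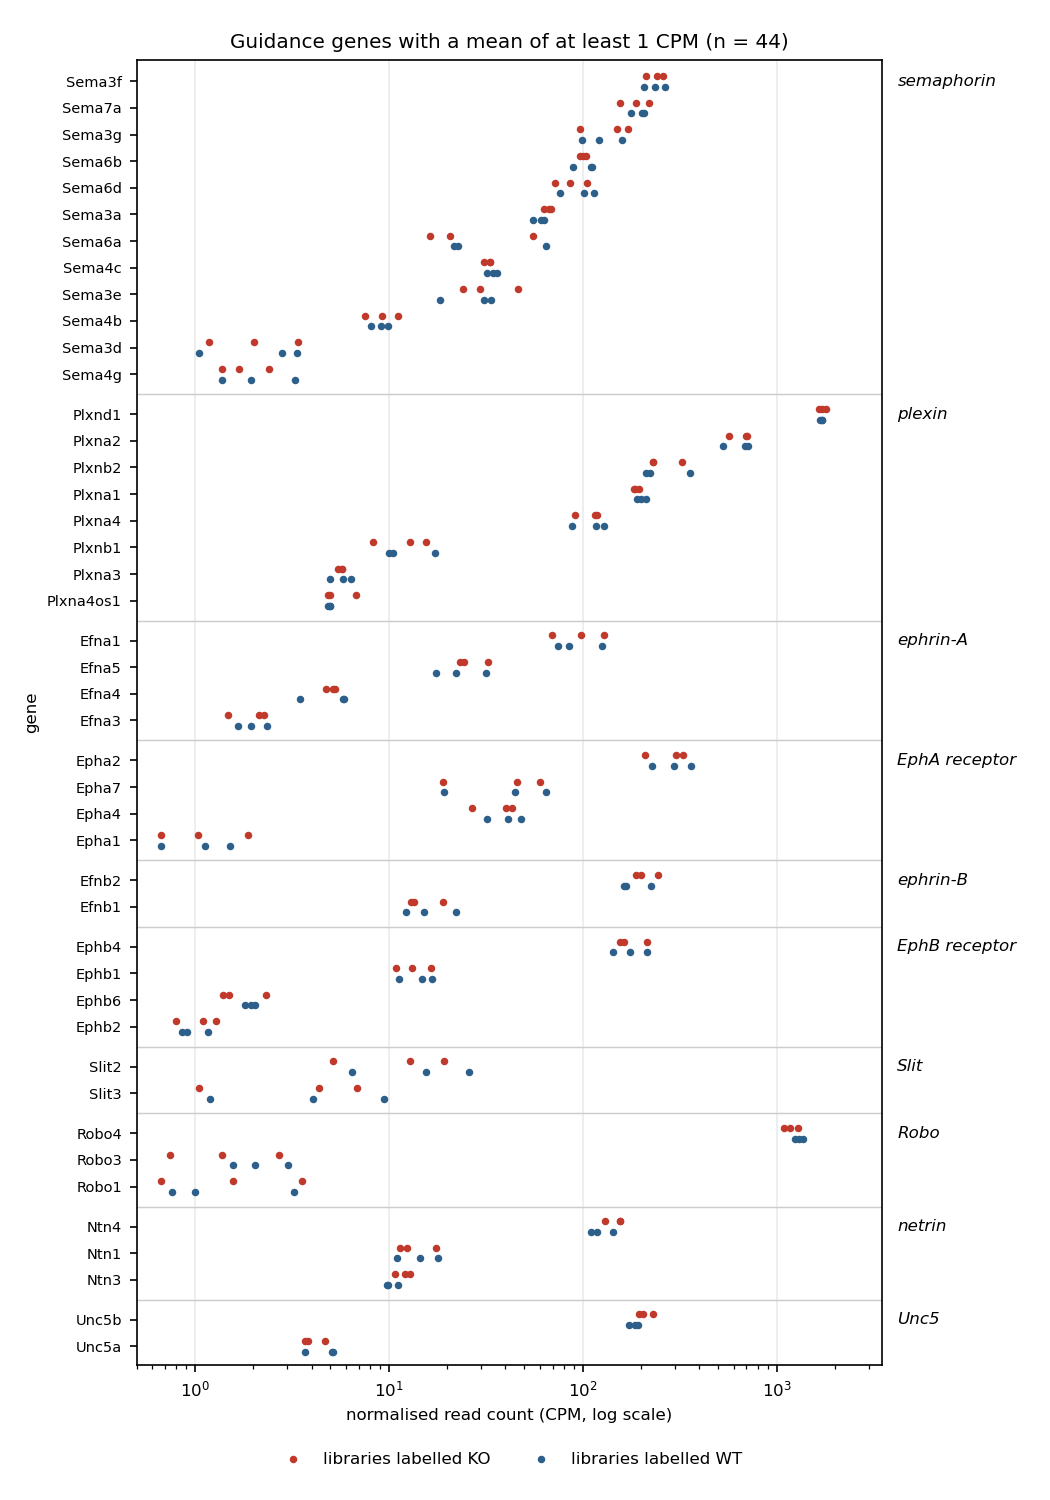
Expression of the 44 guidance genes with a mean of 1 CPM or more, by family. The horizontal axis is CPM on a log scale, and each point is 1 library, with the libraries labelled KO drawn above those labelled WT in each gene's row. Plxnd1 and Robo4 lie farthest right, with no library under 1089 CPM.

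Without the block, the edgeR quasi-likelihood test passed 0 of 49 guidance genes in either direction at an adjusted p of 0.05, where it passed 0% of all 12753 genes as higher and 0.00784% as lower. Only Unc5b had an unadjusted p below 0.05, at 0.0472, against 4.79% of all genes, and DESeq2 also passed 0 guidance genes. In the paired test 4 genes were higher and 4 lower. The share was 8.16% in each direction, against 4.81% of all genes higher and 4.01% lower. The 4 higher were the netrin Ntn4, its family's receptor Unc5b, the ephrin Efnb2 and the semaphorin Sema3e. The 4 lower were Robo4, the Slit ligand Slit2 and the class 6 semaphorins Sema6a and Sema6d. By role, 3 of 27 ligands were higher and 3 lower, and of 22 entries of receptor families 1 was higher and 1 lower. Plxna4os1, an RNA transcribed opposite to Plxna4, is among the 22. The median paired log2 fold change, libraries labelled KO over those labelled WT, was -0.03 over the 49 genes and -0.0033 over all genes. Its median size was 0.13 for guidance genes and 0.080 for all genes. These sizes were not matched for level, whose median was 15.9 CPM for the guidance genes tested and 27.3 CPM for all genes tested.

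The shares of guidance genes without overlap, and with 1 sign in all pairs, were below those of all genes. Groups did not overlap for 1 of 49 genes (2.04%, Unc5b), against 10.2% of all genes, 5.25% with the libraries labelled KO higher and 4.96% with them lower. The sign of the difference was the same in 3 of 3 same-numbered pairs for 15 genes (30.6%), 6 of them higher and 9 lower, against 40.7% of all genes, 20.5% higher and 20.2% lower. By level, the paired test passed none of the 19 genes under 10 CPM, where 7.27% of all genes at such levels did. Between 10 and 100 CPM 4 of 15 (26.7%) passed, against 8.98% of all genes, and from 100 CPM up 4 of 15 (26.7%), against 10.9%. Without the pair numbered 2, 2 genes (Ntn4 and Sema3e) passed as higher and 0 as lower, where 4.28% of all genes passed. Without pair 1, 5 were higher and 5 lower, where 8.8% of all genes passed, and without pair 3, 4 were higher and 2 lower, where 8.97% did. Of the 8 genes above, 6 still passed without pair 1, namely Unc5b, Ntn4, Sema6a, Slit2, Efnb2 and Robo4. Without pair 3, 5 of the 8 did, namely Unc5b, Ntn4, Sema6d, Slit2 and Efnb2. The remaining calls were other guidance genes. DESeq2 with the block passed Ntn4, Unc5b, Efnb2 and Robo4 and not the other 4. Unless stated otherwise, every fold change below is a paired log2 value, and every adjusted p is edgeR's over all genes tested, with the block. Without the block the smallest adjusted p of a guidance gene was 0.996. The SE of Slit2, for example, was 0.673 without the block and 0.0934 with it.

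**Figure D2:**
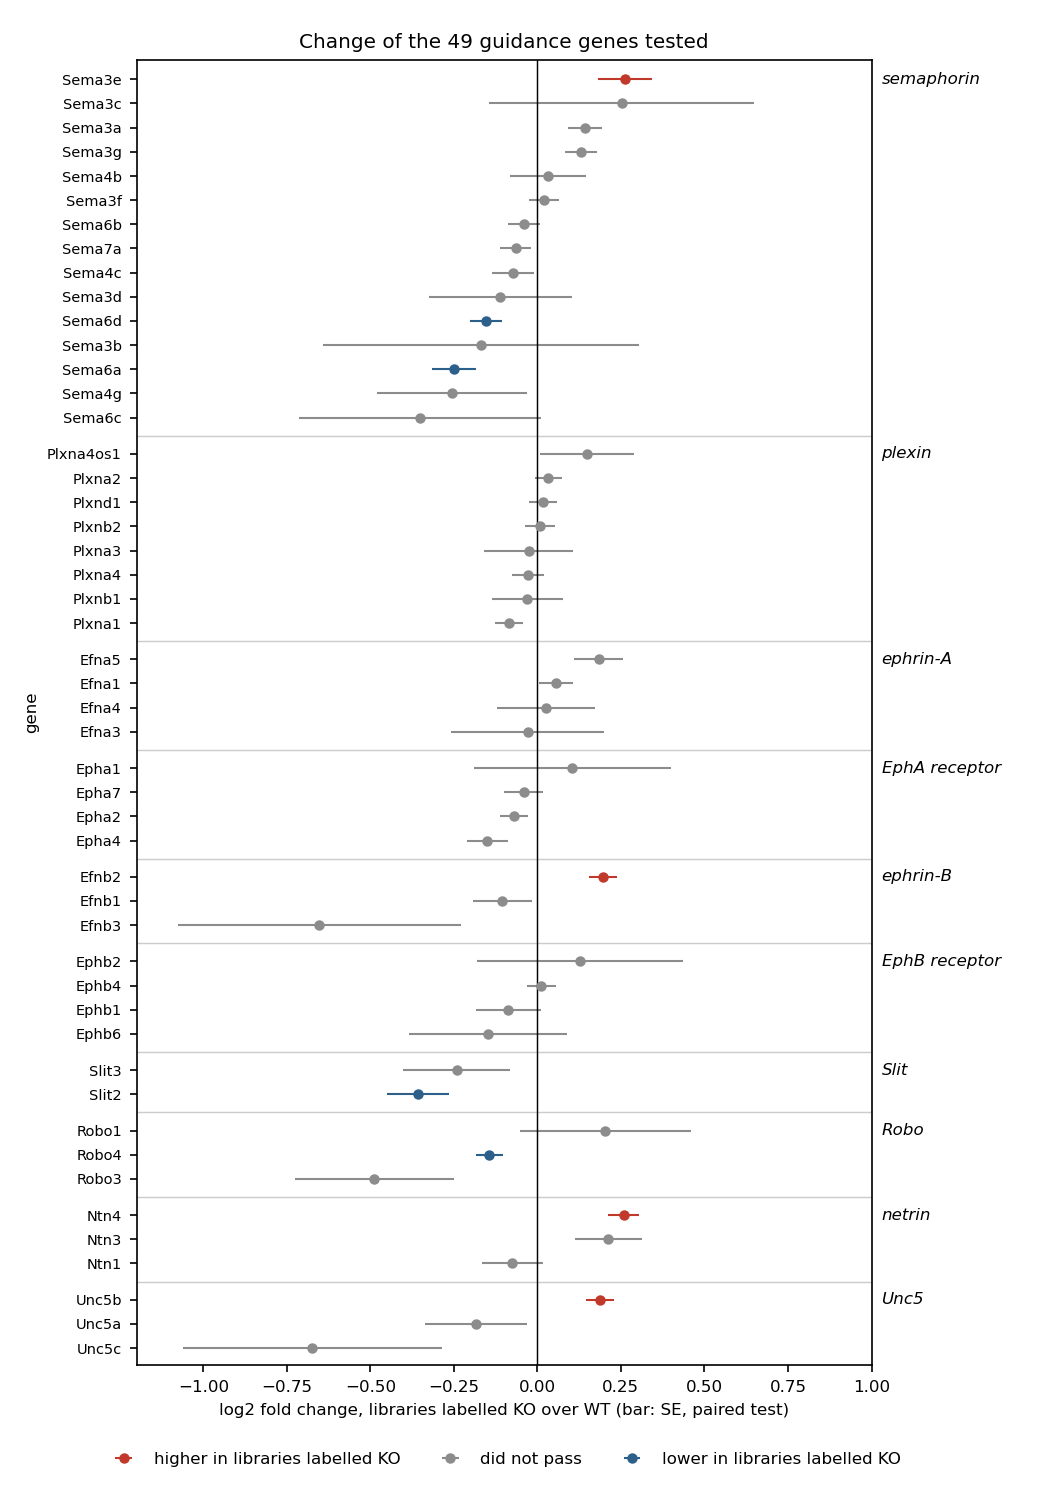
Paired log2 fold change, libraries labelled KO over those labelled WT, of the 49 tested guidance genes by family, with bars of 1 standard error and colours for genes that passed the paired test as higher, as lower or not at all. Most genes lie near 0, and the widest bars belong to genes with few reads.

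The promoters shown are those of the genes that both led their family in CPM, not per kilobase, and passed the paired test. Each is the 250 bases before the RefSeq transcript start on GRCm38.p6, read 5′ to 3′ on the gene's strand. Capitals mark GGAA, the core of the ETS factor site, or its reverse complement TTCC.
Ntn4, chr10:93640799-93641048, plus strand: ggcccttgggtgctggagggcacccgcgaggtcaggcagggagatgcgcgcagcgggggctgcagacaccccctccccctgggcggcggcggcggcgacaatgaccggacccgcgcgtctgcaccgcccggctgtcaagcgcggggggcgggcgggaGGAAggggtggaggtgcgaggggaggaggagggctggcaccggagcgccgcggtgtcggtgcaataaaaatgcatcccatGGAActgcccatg
Unc5b, chr10:60831582-60831831, minus strand: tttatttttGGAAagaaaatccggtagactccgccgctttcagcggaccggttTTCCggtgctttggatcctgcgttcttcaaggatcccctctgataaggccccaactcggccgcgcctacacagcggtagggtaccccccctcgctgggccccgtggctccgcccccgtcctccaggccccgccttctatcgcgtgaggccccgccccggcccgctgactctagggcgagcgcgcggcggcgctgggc
Efnb2, chr8:8661243-8661492, minus strand: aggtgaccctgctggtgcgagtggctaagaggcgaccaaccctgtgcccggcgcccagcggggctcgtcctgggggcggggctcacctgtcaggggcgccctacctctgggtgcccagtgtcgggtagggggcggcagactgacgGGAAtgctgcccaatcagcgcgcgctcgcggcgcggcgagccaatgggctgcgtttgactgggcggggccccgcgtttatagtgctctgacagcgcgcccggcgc
Robo4, chr9:37401722-37401971, plus strand: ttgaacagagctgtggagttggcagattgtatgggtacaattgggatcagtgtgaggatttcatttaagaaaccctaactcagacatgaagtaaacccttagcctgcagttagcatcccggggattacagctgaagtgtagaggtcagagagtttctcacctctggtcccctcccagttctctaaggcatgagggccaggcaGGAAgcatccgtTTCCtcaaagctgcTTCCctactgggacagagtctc
Slit2, chr5:47982905-47983154, plus strand: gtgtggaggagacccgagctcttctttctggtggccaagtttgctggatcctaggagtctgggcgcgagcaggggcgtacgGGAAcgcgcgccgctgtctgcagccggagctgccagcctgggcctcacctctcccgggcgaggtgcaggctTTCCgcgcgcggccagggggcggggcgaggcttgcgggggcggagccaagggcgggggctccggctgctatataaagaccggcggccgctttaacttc

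A match is a description of the letters and not a site of binding. Robo4 held 3 matches, all within the 48 bases next to its RefSeq start. Ntn4 held 2 on its own strand, the nearer ending 9 bases before its RefSeq start. The GENCODE M21 annotation places some gene starts elsewhere. It starts Ntn4 at 93640681, so the whole Ntn4 window lies inside the annotated gene. Robo4 starts there at 37401897, inside its window, and its 3 matches lie after that start. Slit2 starts at 47983138, also inside its window. Unc5b and Slit2 held 1 in each orientation and Efnb2 held 1. Of these 5 only Unc5b carried the longer CCGGAA, as its reverse complement TTCCGG. Such matches were common, since GGAA on either strand stood in 93.4% of 32851 RefSeq promoter windows, with a median of 3 matches, and CCGGAA in 12.0%. In 73 windows of 57 guidance genes found in that table the shares were 91.8% and 9.59%.

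Among netrins and their receptors, Ntn4 and Unc5b were higher in the libraries labelled KO, and the other members did not pass. Ntn4 (ENSMUSG00000020019) is a laminin-related netrin that binds laminins of the basement membrane. It measured 131, 156 and 156 CPM in the libraries labelled KO and 111, 143 and 118 CPM in those labelled WT. The groups overlapped, but each library labelled KO lay above its same-numbered partner. Means were 148 ± 14.7 and 124 ± 17.0 CPM (SD, n = 3 each), and the paired test gave a rise of 0.26 ± 0.0466 (SE), or 19.6%, with an adjusted p of 0.000122. Ntn4 passed in every paired alternative tried.

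Unc5b (ENSMUSG00000020099) is the netrin receptor of endothelial tip and arterial cells, best known for restraining sprouting. It measured 229.9, 195 and 204 CPM in the libraries labelled KO and 194, 173 and 186 CPM in those labelled WT. Here the lowest library labelled KO lay just above the highest labelled WT. Means were 209.8 ± 17.97 and 184 ± 10.6 CPM, a rise of 0.19 ± 0.0417 (SE), or 13.9%, with an adjusted p of 0.00163. Without pair 2 the adjusted p was 0.0603.

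Ntn1, the netrin that attracts or repels growing axons, lay near 14 CPM in both groups, at 13.8 ± 3.24 CPM in the libraries labelled KO and 14.5 ± 3.46 CPM in those labelled WT. Its difference was -0.07, with a 95% interval of -0.26 to 0.11 and an adjusted p of 0.708. Ntn3 differed by 0.21 (adjusted p = 0.213) and the receptor Unc5a by -0.18 (adjusted p = 0.556).

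Among ephrins, only Efnb2 passed. Efnb2 (ENSMUSG00000001300) is the transmembrane ephrin that marks arterial endothelium. It measured 245, 201 and 189 CPM in the libraries labelled KO and 226, 163 and 167 CPM in those labelled WT. Both libraries numbered 1 were the highest of their group, and each library labelled KO exceeded its partner. Means were 212 ± 29.4 and 185 ± 35.4 CPM, a rise of 0.20 ± 0.0428 (SE), or 14.6%, with an adjusted p of 0.00137, and of 0.245 without pair 2. The other ephrin-B genes, Efnb1 at -0.10 and Efnb3 at -0.65, did not pass, and Efnb3 was measured at under 1 CPM.

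Its receptor Ephb4, the marker of venous endothelium, measured 156, 216 and 164 CPM in the libraries labelled KO and 143, 215 and 175 CPM in those labelled WT. The groups overlapped, and library 2 was the highest in both. The difference was 0.01, with a 95% interval of -0.08 to 0.10 and an adjusted p of 0.92. Whether the change of Efnb2 differed from that of Ephb4 was not tested. Ephb1, Ephb2 and Ephb6, with means of 1.02 to 13.9 CPM, did not pass, and Ephb3 was not tested.

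Efna1, a membrane-anchored ephrin that endothelial cells raise on inflammatory signals, measured 98.1, 129 and 69.6 CPM in the libraries labelled KO and 84.8, 125 and 74.9 CPM in those labelled WT. Its pairs went in different directions, and the difference of 0.06 (95% interval -0.05 to 0.16) did not pass. Its receptor Epha2 measured 304, 210.5 and 328 CPM in the libraries labelled KO and 296, 227 and 361 CPM in those labelled WT. Both genes varied more between replicate numbers than between groups. Epha2 differed by -0.07 (95% interval -0.16 to 0.02, adjusted p = 0.368). Without pair 1 it passed as lower, at -0.13 with an adjusted p of 0.0405. Epha4 (-0.15, adjusted p = 0.13) and the ligand Efna5 (0.18, adjusted p = 0.126) did not pass.

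Among semaphorins, 1 class 3 gene was higher and 2 class 6 genes were lower, while 0 of 8 plexin entries passed. Sema3e (ENSMUSG00000063531) is a secreted ligand that binds Plxnd1 without neuropilin and shapes the vessel pattern of the mouse embryo. It measured 24.2, 29.7 and 46.3 CPM in the libraries labelled KO and 18.4, 31.1 and 33.7 CPM in those labelled WT. The pair numbered 2 went the other way from the pairs 1 and 3. Means were 33.4 ± 11.5 and 27.7 ± 8.18 CPM, a rise of 0.26 ± 0.0812 (SE) with an adjusted p of 0.0446. With library size alone as the scaling the adjusted p was 0.0779, without pair 1 it was 0.0675 and without pair 3 it was 0.347.

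Plxnd1 (ENSMUSG00000030123), the endothelial plexin that receives Sema3e, was the most abundant guidance gene in CPM. It measured 1794, 1717 and 1665 CPM in the libraries labelled KO and 1679, 1719.5 and 1716 CPM in those labelled WT. The difference was 0.02, with a 95% interval of -0.07 to 0.10 and an adjusted p of 0.876. The other plexins lay between -0.09 for Plxna1 and 0.03 for Plxna2. Plxna4os1, an RNA transcribed opposite to Plxna4 whose symbol met the rule, stood at 0.15 (adjusted p = 0.614). Its exons do not overlap those of Plxna4.

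Sema6d (ENSMUSG00000027200) and Sema6a are transmembrane semaphorins that bind A-type plexins. Sema6d measured 85.9, 106 and 71.7 CPM in the libraries labelled KO and 102, 114 and 76.4 CPM in those labelled WT. It was lower in each pair, although the groups overlapped. Means were 87.8 ± 17.0 and 97.6 ± 19.3 CPM, and it fell by 0.15 ± 0.0478 (SE), with an adjusted p of 0.0351. The adjusted p was 0.278 without pair 1 and 0.164 without pair 2.

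Sema6a measured 20.6, 55.6 and 16.3 CPM in the libraries labelled KO and 22.8, 65.0 and 21.7 CPM in those labelled WT. In both groups library 2 stood far above the other two, and each library labelled KO was below its partner. Means were 30.8 ± 21.5 and 36.5 ± 24.7 CPM, and it fell by 0.25 ± 0.0666 (SE), with an adjusted p of 0.0107. The adjusted p was 0.126 without pair 2 and 0.0724 without pair 3.

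The abundant class 3 ligand Sema3f, which signals through neuropilin-2, did not pass. It had 239 ± 23.7 CPM in the libraries labelled KO and 236 ± 28.4 CPM in those labelled WT, and the 95% interval of the difference ran from -0.07 to 0.11. Sema3a, a ligand of neuropilin-1, differed by 0.14 (adjusted p = 0.0733), and Sema3g, a secreted endothelial semaphorin, by 0.13 (adjusted p = 0.0954).

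Among the Slit and Robo genes, the receptor Robo4 and the ligand Slit2 were lower in the libraries labelled KO. Robo4 (ENSMUSG00000032125) is the Robo of endothelium, known for stabilising vessel barriers. It measured 1289.9, 1172 and 1089 CPM in the libraries labelled KO and 1375, 1299.7 and 1243 CPM in those labelled WT. Each library labelled KO was below its partner, while library 1 labelled KO lay above library 3 labelled WT. Means were 1184 ± 101 and 1306 ± 66.1 CPM, and Robo4 fell by 0.14 ± 0.0403 (SE), or by 9.51%, with an adjusted p of 0.0158. The adjusted p was 0.259 without pair 2 and 0.116 without pair 3.

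Slit2 (ENSMUSG00000031558), the secreted ligand of Robo1 and Robo2, measured 5.14, 19.2 and 12.9 CPM in the libraries labelled KO and 6.44, 25.9 and 15.6 CPM in those labelled WT. The order of the numbers was the same in both groups, with 1 lowest and 2 highest. Means were 12.4 ± 7.04 and 16.0 ± 9.73 CPM, and Slit2 fell by 0.36 ± 0.0934 (SE), with an adjusted p of 0.00889, and of 0.278 without pair 2. Slit3, a further secreted Slit, measured 1.05, 6.90 and 4.35 CPM in the libraries labelled KO and 1.19, 9.50 and 4.08 CPM in those labelled WT. Its difference of -0.24 (95% interval -0.56 to 0.08) did not pass. Robo1, a Slit receptor, lay between 0.666 and 3.58 CPM and differed by 0.20 (95% interval -0.31 to 0.72).

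The sum of the fibroblast markers was, like Slit2, Slit3 and Sema6a, highest in number 2 of both groups. This pattern was not particular to the fibroblast markers. Their summed level was 112, 901 and 404 CPM in the libraries labelled KO and 153, 1257 and 438 CPM in those labelled WT. Of the 10 markers 7 were tested, of which the paired test passed 2 as lower and 1 as higher, against 4.01% and 4.81% of all genes. None was at 0, but Lum had 6 reads and Dpt 1. Most of the sum came from Col1a1, Col1a2 and Col3a1. Vwf and Tek, alone of the endothelial markers, were also highest in number 2 of both groups. Vwf measured 340, 850 and 209 CPM in the libraries labelled KO and 300, 815 and 231 CPM in those labelled WT. Mural markers summed to 1437, 1868.5 and 1878 CPM in the libraries labelled KO and 1418, 2229 and 1581 CPM in those labelled WT. Of 9 tested markers 3 were lower in the paired test, against 4.01% of all genes. Tagln made up much of these sums, at 982 to 1444 CPM, and was lowest in number 2 of both groups. All other mural markers but Rgs5 were highest in number 2 of both groups. Pdgfrb measured 10.5, 53.8 and 11.4 CPM in the libraries labelled KO and 15.8, 81.3 and 10.2 CPM in those labelled WT. The part of fibroblasts or mural cells in the results for Slit2 and Sema6a was not tested. In bulk RNA, fewer cells of a type and less RNA per cell cannot be told apart.

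**Figure D3:**
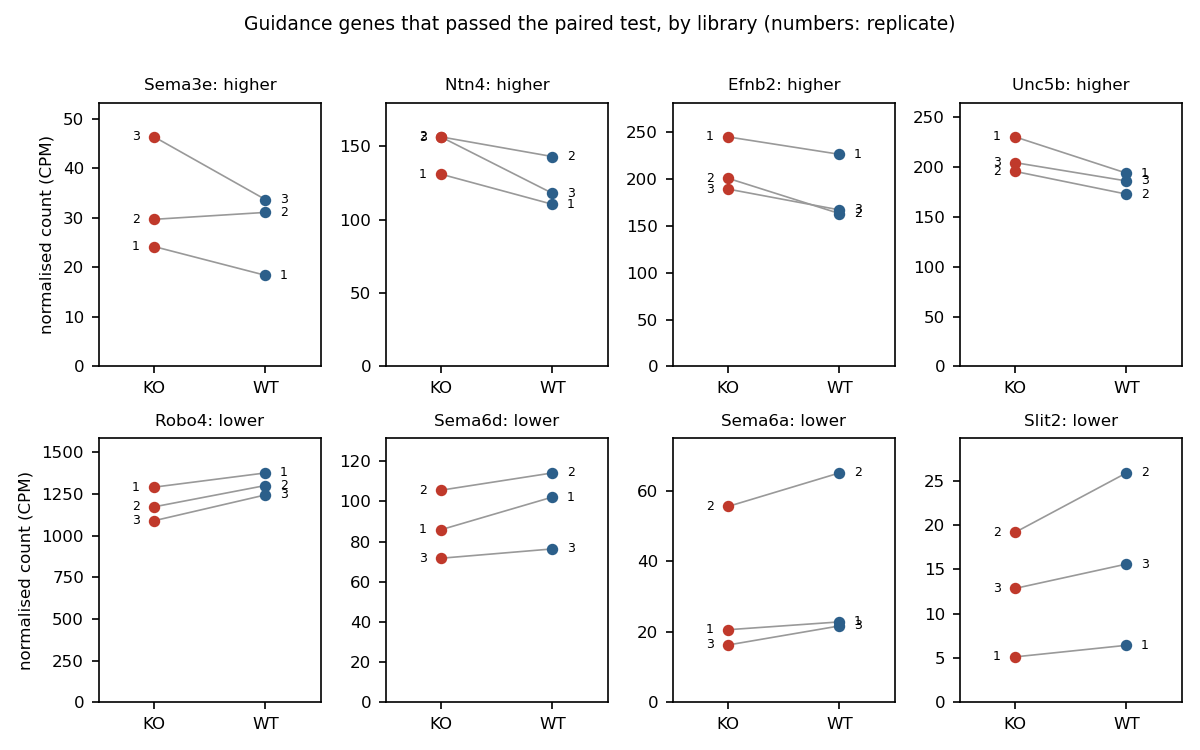
CPM of the 8 guidance genes that passed the paired test, 1 panel a gene, with the libraries labelled KO on the left and those labelled WT on the right. Lines join libraries of the same replicate number. All 3 lines go the same way in 7 panels, and in the Sema3e panel the line of number 2 goes the other way.

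The difference between replicate numbers exceeded that between groups for many of these genes. Of the 44 genes at 1 CPM or more, 9 (20.5%) differed over 2-fold between the highest and the lowest replicate number, averaged over both groups, against 8.35% of all genes tested. These shares were not matched for level, and all genes were chosen by the low-count filter, not the limit of 1 CPM. Of the 9, Slit3, Robo1, Sema3d, Epha1, Robo3 and Sema4g had means under 10 CPM. Whether the share exceeds that of all genes at such levels was not tested. The largest fold between groups among the 44 was 1.40. Slit3 differed 7.32-fold between numbers, Robo1 4.08-fold, Slit2 3.89-fold and Sema6a 3.18-fold, with number 2 highest in each. Epha7, an Eph receptor of the A class, went the other way, at 60.0, 19.1 and 45.8 CPM in the libraries labelled KO and 65.0, 19.3 and 44.8 CPM in those labelled WT. Its number 2 libraries were the lowest in both groups, and its paired difference was -0.04 (adjusted p = 0.764). Of the 49 tested genes, 20 (40.8%) were highest in number 2 in both groups, against 22.6% of all genes, and 11 (22.4%) were lowest there, against 22.2%.

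**Figure D4:**
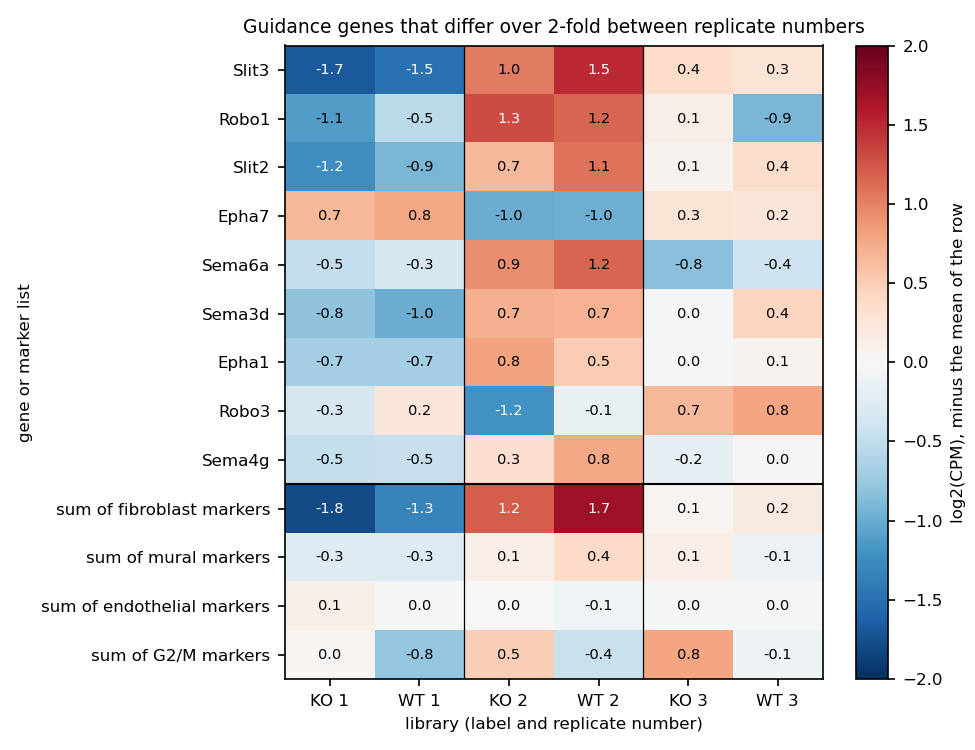
Level of the 9 guidance genes that differed over 2-fold between replicate numbers, and summed levels of fibroblast, mural, endothelial and G2/M markers, in the 6 libraries ordered by number with the library labelled KO left of its WT partner. Colour is log2 CPM minus the row's mean. Slit3, Robo1, Slit2, Sema6a and the fibroblast markers are highest in both number 2 libraries, whereas Epha7 is lowest there.

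Other genes of the pathways, namely co-receptors, further ligands and intracellular effectors, were listed as 78 partner genes, of which 67 were tested. Without the block edgeR passed 0 of them. In the paired test 4 were higher and 6 lower, or 14.9%, against 8.81% of all genes in either direction. By class, 1 co-receptor was higher and 2 lower of 10 tested. Of 19 plexin effectors 1 was higher and 1 lower, of 17 Eph and ephrin effectors 1 was lower, of 18 Robo, Unc5 and Dcc effectors 1 was higher and 2 lower, and of 3 other ligands 1 was higher.

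The smallest p belonged to Srgap1, the GTPase-activating protein that binds Robo1 and acts on Cdc42. It measured 38.1, 42.1 and 29.6 CPM in the libraries labelled KO and 51.9, 51.5 and 38.2 CPM in those labelled WT. It was lower in each pair and fell by 0.37 ± 0.0584 (SE), with an adjusted p of 1.17e-05, and passed in every paired alternative. Gpc1, a heparan sulfate proteoglycan that binds Slits, fell by 0.41 (adjusted p = 0.0088). Its levels were 2.66, 25.8 and 6.32 CPM in the libraries labelled KO and 4.34, 35.3 and 6.73 CPM in those labelled WT, again highest in number 2. The exchange factor Vav3, which acts downstream of Eph receptors, fell by 0.35 (adjusted p = 0.0133), and the kinase Dapk1, a binding partner of Unc5b, fell by 0.26 (adjusted p = 0.0154).

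With the block DESeq2 passed Srgap1 of these and not Gpc1, Vav3 or Dapk1. Of the higher partner genes, Dpysl3, a cytoskeletal protein of the family that relays semaphorin signals, averaged 737 ± 48.7 CPM in the libraries labelled KO and 645 ± 75.8 CPM in those labelled WT (0.20, adjusted p = 0.000795). Met, the hepatocyte growth factor receptor that associates with B-type plexins, averaged 34.9 ± 7.24 and 28.2 ± 4.20 CPM in the same order (0.30, adjusted p = 0.00172). Maged1, a binding partner of Unc5 receptors, averaged 232 ± 10.9 and 211 ± 13.5 CPM (0.14, adjusted p = 0.0204). Rgma, a neogenin ligand, averaged 2.17 ± 0.845 and 1.23 ± 0.623 CPM (0.82, adjusted p = 0.0302). DESeq2 passed Dpysl3 alone of these 4. Without pair 2 none of the 4 passed, and of the 4 named lower genes Srgap1, Vav3 and Dapk1 did. Without pair 1 Rgma, Vav3 and Dapk1 did not pass (adjusted p of 0.0549, 0.114 and 0.0685), and without pair 3 Rgma and Dapk1 did not (0.166 and 0.104). With library size alone Maged1 did not pass (0.0697).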

How the data were processed

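The authors deposited raw, unnormalised read counts for 24421 gene symbols in 6 libraries. The tools in the submitters' processing notes are STAR 2.6.1d, FastQC 0.11.8, featureCounts of Subread 1.6.4 and Trim Galore 0.6.4, and the builds are GRCm38 and mm10. Per the labels' protocols, libraries used a non-stranded or a stranded TruSeq kit, without saying which sample had which. The counting's annotation and strand setting are not stated there, so overlapping opposite-strand genes are uncertain. Epha1, at a mean of 1.15 CPM, shares 236 exon bases with Zyx, Unc5a 34 with Hk3 and Ephb4 33 with Zan. On the same strand, Ntn3 shares 89 exon bases with Tbc1d24. Symbols were matched to GENCODE M21, which gave exon lengths and gene identifiers.

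In R 4.3.3, genes passing filterByExpr (12753) were compared with the robust quasi-likelihood test of edgeR 4.0.16, with TMM scaling (factors 0.983 to 1.02) and Benjamini-Hochberg adjustment at 0.05. CPM uses the TMM-scaled size. SE is the size of the log2 fold change over the root of F. Chi-square per degree of freedom between libraries was 5.63 to 42.9, so no 2 were duplicates.

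Groups share the numbers 1 to 3. Deviations from group means correlated at 0.806, 0.890 and 0.710 for the same number, above the limit of 0.1 for pairing. For different numbers they correlated at -0.72 to 0.16. The value of 0.16, for library 1 labelled KO with library 3 labelled WT, also passed that limit. Pairing by number is read from the data and is not stated by the labels. The biological coefficient of variation was 0.0383 with the block, on 2 residual degrees of freedom, and 0.189 without it, on 4, so paired p-values rest on a spread pooled across genes. The smallest two-sided p of an exact permutation test is 0.1 for 3 against 3 libraries and 0.25 for 3 pairs.

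Named genes were the members passing either test, the most abundant of each family, the best known vascular pairs, and up to 4 passing partner genes per direction by p. Other genes given with values were chosen after these were seen. Members, partner genes and marker lists were chosen with earlier results of these data known. Alternatives were DESeq2 1.42.0, limma-voom (limma 3.58.1), RLE factors, library size alone, no filter, and each library or pair left out. The tests were tested on counts simulated from the fitted model with the block, which cannot show whether that pairing holds in these data.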

Additional observations from a re-analysis of the deposited data

How the results depend on the processing

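With the replicate block, 4 guidance genes were higher and 4 lower in place of 0 and 0, and 4 partner genes were higher and 6 lower in place of 0 and 0. The 8 guidance genes kept their direction in all paired alternatives. With the block, DESeq2 passed 3 guidance genes as higher and 1 as lower (Efnb2, Ntn4, Unc5b and Robo4), and 1 partner gene as higher (Dpysl3) and 1 as lower (Srgap1). Library size alone gave 3 higher and 4 lower guidance genes and 3 and 7 partner genes, and moved the share of all paired calls that were higher to 39.1%, against 54.5% with TMM, with a median log2 fold change over all genes of -0.0297, against -0.0033 with TMM. Leaving out each pair gave 2 to 5 higher and 0 to 5 lower guidance genes and 0 to 4 higher and 3 to 5 lower partner genes. Without pair 2 that was 2 and 0 guidance genes (4.28% of all genes), without pair 1 5 and 5 (8.8%), and without pair 3 4 and 2 (8.97%). In the same order, 2, 6 and 5 of the 8 guidance genes were among them. Without the block, leaving out each library gave 0 in every count. The count of guidance genes at 1 CPM or more was 44 on average level, 43 to 44 with a library left out and 40 if required in every library. Some genes not passing changed sign. With library size alone, Ephb4 stood at -0.019 without and -0.014 with the block, Plxnd1 at -0.0095 and -0.0099, and Sema3f at -0.0095 and -0.0070. Leaving out 1 library without the block, the value ran from -0.18 to 0.31 for Efna1, -0.23 to 0.10 for Epha2, -0.15 to 0.16 for Ephb4, -0.29 to 0.11 for Ntn1, -0.012 to 0.042 for Plxnd1, -0.59 to 1.11 for Robo1, -0.041 to 0.46 for Sema3e, -0.070 to 0.11 for Sema3f, -0.98 to 0.46 for Sema6a, -0.83 to 0.16 for Slit2, -0.88 to 0.63 for Slit3 and -1.79 to 1.06 for Gpc1. Leaving out 1 pair with the block, it ran from -0.024 to 0.12 for Efna1, -0.042 to 0.063 for Ephb4, -0.025 to 0.047 for Plxnd1, -0.036 to 0.40 for Robo1, -0.046 to 0.091 for Sema3f and -0.41 to 0.0077 for Slit3. The causes were not tested. At these depths, genes under 10 CPM had wide intervals, as the value for Robo1 shows.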

Other observations

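Robo4 and Robo3 are neighbours on mouse chromosome 9 (GRCm38), at 37401897 to 37415115 and 37415669 to 37433246, and lie 4.86 and 4.87 Mb from Fli1 at 32422204 to 32542861. Robo3 measured 1.38, 0.749 and 2.72 CPM in the libraries labelled KO and 2.05, 1.57 and 3.01 CPM in those labelled WT. It was lower in each pair, at -0.49, and did not pass the paired edgeR test (adjusted p = 0.231). The next guidance gene on that chromosome, Sema7a, lies 25.4 Mb from Fli1, and its value of -0.07 did not pass (adjusted p = 0.459). A link between distance from Fli1 and these values was not tested.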
